A study of Mus musculus with 24 samples.

Results

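The genes described here encode the enzymes that cut the extracellular matrix of the spinal cord and the proteins that hold those enzymes in check. They belong to 3 families: the matrix metalloproteinases (MMPs), the ADAMTS proteinases (secreted metalloproteinases that carry disintegrin and thrombospondin domains) and the tissue inhibitors of metalloproteinases (TIMPs). Members were chosen by name alone, as protein-coding genes whose symbol is Mmp with a number and at most 1 letter, or Adamts or Timp with a number. This gave 45 of the 21965 genes listed, of which 22 are MMPs, 19 are ADAMTS genes and 4 are TIMPs. Of these, 40 had a sum of at least 10 counts over the 24 libraries and were tested with 17167 genes in all. Adamts13, Mmp1b, Mmp20, Mmp21 and Mmp7 were below that sum, and Mmp1b and Mmp20 had no count.

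MMPs and ADAMTS proteinases are zinc enzymes that are made as inactive proenzymes and act outside the cell or at its surface. MMPs cleave collagens, laminins and many secreted factors, whereas several ADAMTS enzymes cleave lecticans, the large proteoglycans that fill the space between cells of the central nervous system and collect in the glial scar. TIMPs bind the active site of these enzymes, and the balance of enzyme and inhibitor is known to bear on the blood-spinal cord barrier, on leukocyte entry and on scar remodelling after contusion.

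All 8 groups came from OL-Ribotag mice, in which tamoxifen-induced Cre puts a hemagglutinin tag on the ribosomal protein Rpl22 of oligodendrocytes (OLs). Naive mice had no injury, and the other mice were studied on day 2, 10 or 42 after a contusion (dpi 2, dpi 10 and dpi 42) with a force of 50 kdyn at vertebral level T9. Tamoxifen was given to all of them before injury. The mice are all labelled as female and 10 to 12 weeks old. The study's methods conflict with that age. By them, naive tissue was taken on the day of the dpi 42 tissue, so that naive mice were older than those of dpi 2 and dpi 10, and age and injury cannot be told apart at these times. Cord tissue around the lesion level of 2 mice was pooled for each of the 12 replicates. Each pool gave 1 library of total spinal cord RNA and 1 library of RNA bound to tagged ribosomes, called OL RNA here, so that each of the 8 groups has n = 3. This Cre is also active in Schwann cells, and RNA of other cells can be carried through the precipitation. Naive pools are the same mice in each comparison with naive tissue, so those comparisons share their controls.

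Libraries held 25840127 to 32987841 counts (median 29062636), so 3 counts in 1 library stood near 0.1 CPM (counts scaled to a common library size with TMM factors). The floor used for a gene with no count in a group was 3 counts over its 3 libraries together, a lower level than that. The summed level of 8 OL markers was 96315 to 157866 CPM in OL libraries and 19318 to 27881 CPM in total libraries. Of the 12 OL libraries, 5 held astrocyte markers above the lowest total library. These were pool 3 of naive tissue, pool 3 of dpi 2, pool 2 of dpi 10 and pools 1 and 2 of dpi 42. Their sum over 6 markers was 6259 to 12188 CPM, against 945 to 2551 CPM in the other 7. Schwann cell markers in OL libraries went from 12.2 and 13.5 CPM in naive pools 1 and 2 (638 in pool 3) to between 232 and 1569 after injury. Pool 2 of dpi 2 held Y-linked counts, and both libraries of pool 1 of dpi 42 have titles that give the opposite kind of RNA from their descriptions. The descriptions, which the column names repeat, were followed. The OL markers in that pool summed to 103467 CPM in the library described as OL RNA and 23342 CPM in the one described as total RNA. Where a call described here was lost without one of these libraries, the value without it is given, as it is for calls made only without the 5 high in astrocyte markers. Exons of Mmp11, Adamts4, Timp3, Timp4, Mmp28, Mmp19, Mmp24, Adamts9 and Adamts7 overlap a gene on the other strand that is also in the table, as do those of Mmp12 and Mmp1b with each other, and the strand setting of the counting is not given in the sources used here, so their reads may be shared.

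Per kb of exon, inhibitor transcripts outweighed those of the enzymes in total RNA. The summed level of the TIMPs was 184 ± 9.79 CPM per kb in naive total RNA (mean ± SD, n = 3), against 43.3 ± 2.05 for the MMPs and 36.8 ± 1.22 for the ADAMTS genes. The leading genes on this scale were Timp2 (149 CPM per kb), Adamts4 (23.5), Timp3 (20.04), Mmp15 (15.2) and Timp4 (14.2). In naive OL RNA the order was different, with Adamts4 first (185 CPM per kb), followed by Timp2 (61.9), Mmp15 (32.2), Timp3 (13.5) and Adamts1 (10.1). The MMP sum in total RNA was 57 ± 2.37 CPM per kb on dpi 2, 86.4 ± 4.45 on dpi 10 and 63.2 ± 5.17 on dpi 42. The TIMP sum in total RNA stood at 347 ± 43.7, 296 ± 11.02 and 275 ± 23.99 CPM per kb on the same days. In OL RNA the ADAMTS sum was 206 ± 21.4 CPM per kb in naive tissue and 114 ± 16.8 on dpi 2, most of it Adamts4. These sums carry no test.

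**Figure D1:**
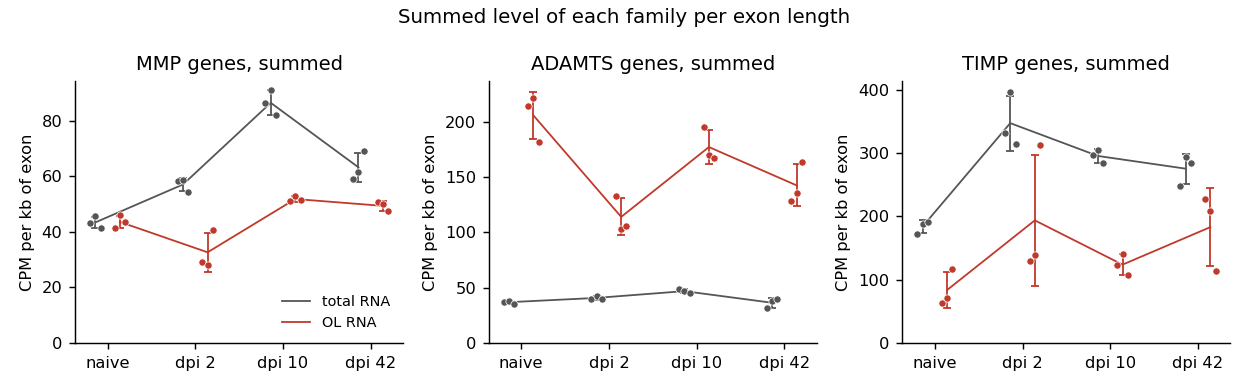
Summed level of each family in CPM per kb of exon (y axis) at the 4 times (x axis), in total RNA and in OL RNA, with 1 point per library and the group mean ± SD. In total RNA the TIMP sum stands above the MMP and ADAMTS sums in each group, with group means of 184 to 347 CPM per kb.

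More members rose than fell against naive tissue at each time in both kinds of RNA, with OL RNA of dpi 2 nearly balanced. A member was called where the log2 fold change (Log2FC) against naive tissue was past 1 in either direction with q under 0.05, q being the Benjamini-Hochberg adjusted p of the quasi-likelihood test of edgeR over all tested genes. In OL RNA on dpi 2, 8 of the 40 members were higher and 7 lower, where 10.2% of all tested genes were higher and 6.85% lower. OL RNA of dpi 10 had 14 members higher and 0 lower (all genes, 6.82% and 1.26%). OL RNA of dpi 42 had 12 higher and 0 lower (all genes, 8.54% and 4.08%). Total RNA had 10 members higher and 1 lower on dpi 2 (all genes, 10% and 6.33%). The counts were 14 and 0 in total RNA of dpi 10 (all genes, 9.2% and 3.07%). They were 9 and 0 in total RNA of dpi 42 (all genes, 6.66% and 0.798%). Set against 40 members, each of these rising counts was a larger share than that of all genes, and the falling count was larger only in OL RNA on dpi 2. The median Log2FC of the members in total RNA was 1.06 against -0.10 over all tested genes on dpi 2. It was 0.79 against -0.10 on dpi 10 and 0.29 against -0.08 on dpi 42. In OL RNA the median was 0.00 against 0.00 over all tested genes on dpi 2. It was 1.41 against 0.00 on dpi 10 and 0.98 against 0.00 on dpi 42. With genes that have no count in a group put at their bound, the OL median on dpi 10 was 1.02. Fitted on the groups compared alone, the called members were 8 in OL RNA and 22 in total RNA on dpi 2. They were 22 in total RNA on dpi 10 and 6 in OL RNA on dpi 42. The shares above belong to the fit of all libraries. Those of all tested genes in the fits on the groups compared alone were not counted, so these member counts have no share beside them. In bulk RNA a change in the number of cells of a type and a change in RNA per cell cannot be told apart.

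By family, 10 of 18 tested MMPs rose in total RNA on dpi 10, against 3 of 18 ADAMTS genes and 1 of 4 TIMPs. On dpi 2 in OL RNA there were 4 of 18 ADAMTS genes higher and 5 of 18 lower, and 3 of 18 MMPs higher and 2 of 18 lower. Scaling by library size alone, without TMM factors, moved the balance of all calls toward higher by over 10 percentage points in 4 of these comparisons. The higher share of all calls was then 72.3% against 59.9% in OL RNA on dpi 2, 78.4% against 67.7% in OL RNA on dpi 42, 79.5% against 61.3% in total RNA on dpi 2 and 90.3% against 74.99% in total RNA on dpi 10. Under it the members were 8 higher and 6 lower, 15 higher and 0 lower, 14 higher and 1 lower and 16 higher and 0 lower in these comparisons.

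**Figure D2:**
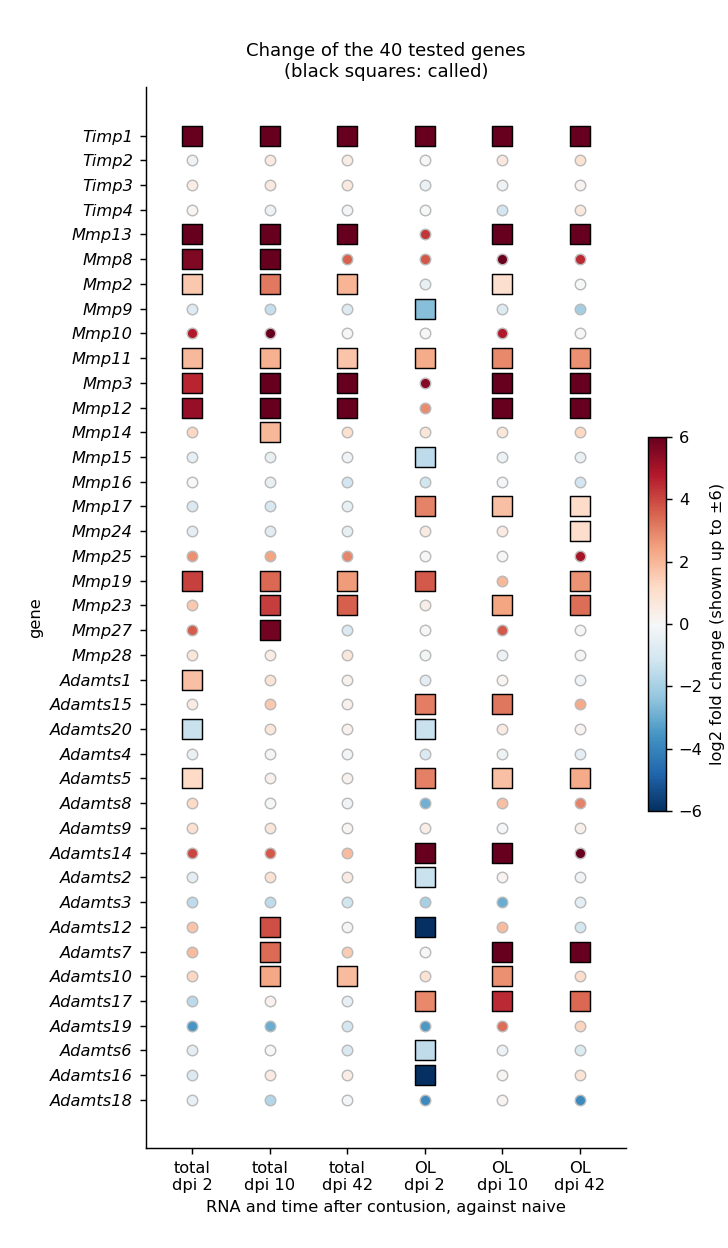
Log2 fold change against naive tissue (colour scale) of the tested members (rows) in total RNA and OL RNA on dpi 2, 10 and 42 (columns), with called changes drawn as squares and the others as circles. Colours of genes with no count in a group are fitted values, not measured folds, and the marked cells of total RNA are nearly all higher, with 1 lower on dpi 2.

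Timp1, an inhibitor of most secreted MMPs (chrX:20870166-20874735, GRCm38), was the only TIMP called against naive tissue with all libraries in the fit, higher at all 3 times in both kinds of RNA. In total RNA Timp1 stood at 0.426, 0.258 and 0.317 CPM in naive cord, 152, 198 and 133 on dpi 2, 36.4, 37.1 and 34.4 on dpi 10, with 20.02, 26.5 and 26.1 on dpi 42. In OL RNA Timp1 stood at 0.04202, 0 and 0.115 CPM in naive cord, 52.7, 56.3 and 199 on dpi 2, 7.84, 20.1 and 8.34 on dpi 10, with 49.2, 52.9 and 9.82 on dpi 42. All injured libraries lay far above all naive libraries, dpi 2 was the highest time in total RNA, and in each injured OL group the libraries high in astrocyte markers were also the highest in Timp1. Its Log2FC in total RNA was 8.899 (SE 0.74, q = 1.47e-08) on dpi 2, 6.74 (SE 0.71, q = 3.78e-07) on dpi 10 and 6.17 (SE 0.70, q = 2.02e-06) on dpi 42. In OL RNA, where the naive group held 4 counts in all, it was 10.78 (SE 0.91, q = 1.14e-08), 7.69 (SE 0.94, q = 6.10e-06) and 9.32 (SE 0.91, q = 3.19e-07). Between dpi 2 and dpi 10 Timp1 fell by 2.16 on the log2 scale in total RNA (q = 0.00878) and by 3.08 in OL RNA (q = 2.11e-04). Timp1 made up 0.206% ± 0.0639 of the TIMP sum per kb in naive total RNA and 51.8% ± 4.35 on dpi 2.

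Timp2, which inhibits MMPs and also takes part in the activation of proMMP2 by Mmp14, was the most abundant inhibitor and stayed under the limit of change. In total RNA Timp2 stood at 544, 596 and 604 CPM in naive cord, 483, 476 and 483 on dpi 2, 839.7, 872 and 794 on dpi 10, with 728, 852 and 813 on dpi 42. In OL RNA Timp2 stood at 214, 247 and 263 CPM in naive cord, 232, 244 and 221 on dpi 2, 387, 383 and 341 on dpi 10, with 524, 451 and 348 on dpi 42. Each OL library was lower than each total library, in every group. Its total change was -0.27 (q = 0.0645), 0.52 (q = 0.00119) and 0.46 (q = 0.00578) on the 3 days, and its OL change reached 0.87 (q = 8.50e-06) on dpi 42. Timp2 was depleted from OL RNA in all 4 groups, with a Log2FC of OL against total RNA of -1.27 (SE 0.11, q = 5.38e-07) in naive tissue and -0.87 (SE 0.11, q = 2.30e-05) on dpi 42.

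Timp3, the matrix-bound inhibitor that also blocks ADAMTS enzymes, was called only as depleted from OL RNA after injury. In total RNA Timp3 stood at 159, 165 and 165 CPM in naive cord, 195, 269 and 201 on dpi 2, 246, 239.6 and 239 on dpi 10, with 203, 265 and 274 on dpi 42. In OL RNA Timp3 stood at 51.9, 46.7 and 230.2 CPM in naive cord, 48.7, 74.7 and 129.99 on dpi 2, 99.4, 106 and 70.3 on dpi 10, with 148, 137 and 87.4 on dpi 42. In each OL group the libraries high in astrocyte markers were the highest for Timp3, and the OL groups overlapped. Timp3 was depleted from OL RNA with a Log2FC of -1.497 (q = 0.00615) on dpi 2, -1.41 (q = 0.00761) on dpi 10 and -1.02 (q = 0.0411) on dpi 42. The dpi 2 call was not made without pool 1 or 2 of dpi 2 (log2 -1.24 to -1.31, q = 0.0502 to 0.0601), the dpi 10 call without pool 3 of dpi 10 (log2 -1.24, q = 0.0581), and the dpi 42 call without pool 2 or 3 of dpi 42 (log2 -0.71 to -1.05, q = 0.1102 to 0.238). Without the 5 OL libraries high in astrocyte markers it was also depleted in naive tissue, at -1.55 (q = 8.59e-07) against -1.01 (q = 0.0503).

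Timp4 was called in no comparison with all libraries in the fit. In total RNA Timp4 stood at 77.2, 84.05 and 90.3 CPM in naive cord, 70.5, 108 and 95.5 on dpi 2, 64.2, 62.02 and 69.5 on dpi 10, with 83.7, 75.7 and 72.6 on dpi 42. In OL RNA Timp4 stood at 9.96, 11.5 and 124 CPM in naive cord, 27.6, 18.4 and 99.7 on dpi 2, 13.01, 39.8 and 14.3 on dpi 10, with 113, 96.3 and 12.4 on dpi 42. The 5 OL libraries high in astrocyte markers were the 5 highest for Timp4, at 39.8 to 124 CPM, and the other 7 lay between 9.96 and 27.6. Without those 5 libraries Timp4 was depleted from OL RNA in all 4 groups, with a Log2FC of -2.75 (q = 3.62e-06) in naive tissue, -1.99 (q = 3.90e-05) on dpi 2, -2.25 (q = 1.74e-05) on dpi 10 and -2.52 (q = 1.60e-04) on dpi 42, the last with 1 OL library left. In that fit the OL change of Timp4 on dpi 2 was 1.04 (q = 2.06e-04), called as higher, against -0.002 (q = 1) with all libraries. The same step left Timp1 depleted with a Log2FC of -3.63 (q = 0.00237) in naive tissue, -1.72 (q = 2.28e-06) on dpi 2 and -1.38 (q = 3.40e-04) on dpi 42, where the value with all libraries was 0.36 (q = 0.605).

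**Figure D3:**
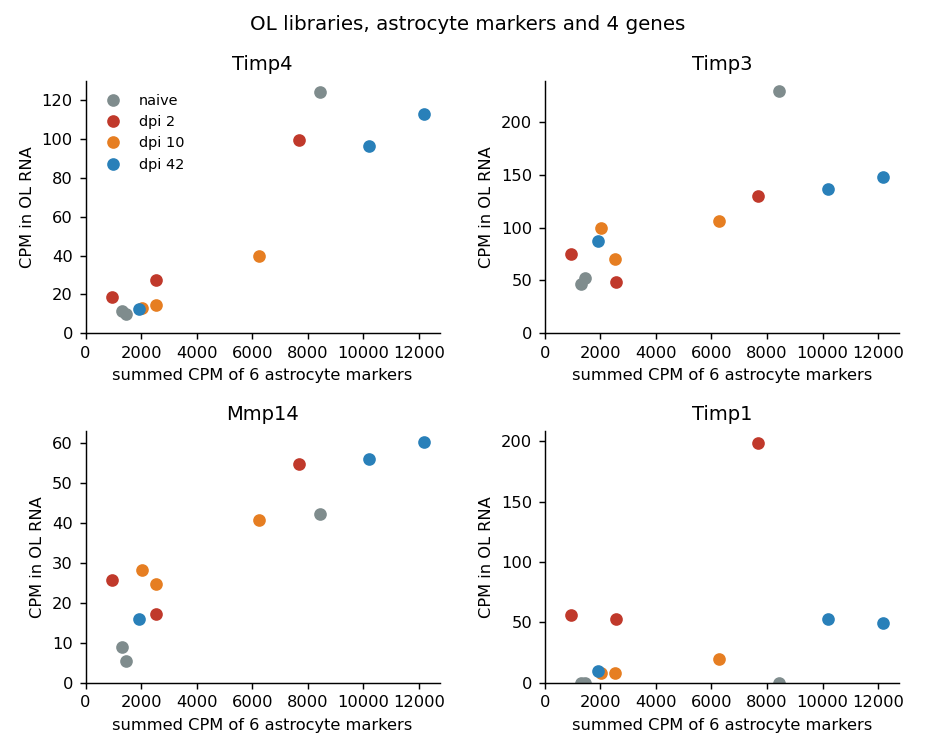
Level of Timp4, Timp3, Mmp14 and Timp1 in CPM (y axis) against the summed level of 6 astrocyte markers in CPM (x axis) in the 12 OL libraries, coloured by time. For Timp4 the 5 libraries high in astrocyte markers are the 5 highest, at 39.8 to 124 CPM.

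The secreted MMPs that lie side by side on chromosome 9 each had at most 5 counts over the 3 naive total libraries, and Mmp3, Mmp8, Mmp12, Mmp13 and Mmp27 rose there after injury. Mmp3, Mmp12 and Mmp13 are shown with the letters before their start sites. Of the members with a promoter entry, 7, all in this cluster, held the AP-1 letters TGANTCA within 250 bases before the start (RefSeq promoters, GRCm38.p6, 31 members matched with 34 entries). These were Mmp10, Mmp12, Mmp13, Mmp1b, Mmp20, Mmp3 and Mmp7. Of these Mmp10 was not called against naive tissue, and Mmp1b, Mmp20 and Mmp7 were not tested. Mmp8 and Mmp27, which rose, held no AP-1 letters, and neither did the first listed start of Mmp12. Whether the letters bear on the rise was not tested. The share was 20.59% of the member entries and 6.749% of all 32851 entries. In the sequences that follow, all on the plus strand, capitals mark the letters found, read on either strand. The match lay 46 bases before the start of Mmp3, 44 before that of Mmp12 (the second of its listed starts) and 35 before that of Mmp13. Timp1, which held no AP-1 letters, is shown beside them with its GC box (GGGCGG on either strand), letters held by 47.06% of member entries and 32.74% of all. The STAT letters TTCNNNGAA were in 2.941% of member entries, those of Mmp23, and in 7.02% of all.
Mmp3, chr9:7445572-7445821: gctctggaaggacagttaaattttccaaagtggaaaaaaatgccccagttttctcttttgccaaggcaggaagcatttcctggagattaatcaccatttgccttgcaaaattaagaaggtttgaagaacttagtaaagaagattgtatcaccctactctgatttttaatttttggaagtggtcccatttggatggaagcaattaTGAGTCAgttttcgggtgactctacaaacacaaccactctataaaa
Mmp12, chr9:7347124-7347373: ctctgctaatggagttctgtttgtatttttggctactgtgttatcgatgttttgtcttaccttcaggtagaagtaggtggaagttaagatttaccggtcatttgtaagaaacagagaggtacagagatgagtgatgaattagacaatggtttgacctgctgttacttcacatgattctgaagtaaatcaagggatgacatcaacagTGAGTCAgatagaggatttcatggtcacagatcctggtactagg
Mmp13, chr9:7272264-7272513: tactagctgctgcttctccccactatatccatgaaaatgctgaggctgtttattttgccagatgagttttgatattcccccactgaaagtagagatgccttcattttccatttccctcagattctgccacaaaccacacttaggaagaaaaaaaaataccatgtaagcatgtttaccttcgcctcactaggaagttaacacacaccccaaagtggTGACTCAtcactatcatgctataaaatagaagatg
Timp1, chrX:20869916-20870165: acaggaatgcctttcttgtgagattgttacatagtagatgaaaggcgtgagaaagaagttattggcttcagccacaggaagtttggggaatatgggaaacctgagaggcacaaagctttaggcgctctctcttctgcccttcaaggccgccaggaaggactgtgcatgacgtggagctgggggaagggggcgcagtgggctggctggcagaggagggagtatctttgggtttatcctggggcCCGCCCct

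Mmp12, the macrophage elastase (chr9:7344381-7369499), was the highest of these genes in total RNA on dpi 10 and dpi 42, in CPM. In total RNA Mmp12 stood at 0.164, 0 and 0 CPM in naive cord, 3.19, 1.41 and 1.904 on dpi 2, 30.8, 60.2 and 34.8 on dpi 10, with 26.7, 37.6 and 49.6 on dpi 42. In OL RNA Mmp12 stood at 0 CPM in each library in naive cord, 0.0756, 0 and 0 on dpi 2, 0.932, 4.03 and 1.37 on dpi 10, with 0.909, 1.98 and 2.74 on dpi 42. Total libraries of dpi 10 and dpi 42 overlapped each other and lay above those of dpi 2, which lay above naive. Log2FC in total RNA was 5.23 (SE 0.86, q = 7.57e-05) on dpi 2, 9.497 (SE 0.86, q = 1.32e-07) on dpi 10 and 9.35 (SE 0.86, q = 2.87e-07) on dpi 42, with 5 counts in the naive group. In OL RNA, where naive libraries held no count, Mmp12 was at least 51.99-fold higher on dpi 10 (q = 1.33e-04) and at least 45.1-fold higher on dpi 42 (q = 8.15e-05), the bound being taken against 3 counts over the group. OL libraries held less Mmp12 than total libraries on dpi 10, with a Log2FC of -4.51 (SE 0.35, q = 1.04e-06), and on dpi 42, with a Log2FC of -4.42 (SE 0.35, q = 1.17e-06).

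Mmp13, a collagenase (chr9:7272514-7283331), had no count in any naive library. In total RNA Mmp13 stood at 0 CPM in each library in naive cord, 12.1, 1.53 and 1.33 on dpi 2, 11.4, 11.9 and 9.23 on dpi 10, with 2.397, 1.89 and 5.12 on dpi 42. In OL RNA Mmp13 stood at 0 CPM in each library in naive cord, 0.227, 0 and 0 on dpi 2, 2.64, 0.799 and 1.67 on dpi 10, with 0.419, 0 and 1.096 on dpi 42. On dpi 2 the total library of pool 1 was far above the other pools and near the dpi 10 libraries, which were alike. Mmp13 was at least 159.9-fold higher in total RNA on dpi 2 (q = 3.60e-04), at least 336-fold higher on dpi 10 (q = 1.83e-04) and at least 97.8-fold higher on dpi 42 (q = 0.00147). In OL RNA it was at least 41.7-fold higher on dpi 10 (q = 0.00604) and at least 12.1-fold higher on dpi 42 (q = 0.0208). The dpi 42 call in OL RNA was not made without the OL library of pool 1 or 2 of naive tissue or the OL library of pool 3 of dpi 42 (q = 0.0584 to 0.0861).

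Mmp3, stromelysin 1, which cleaves proteoglycans and activates other proenzymes (chr9:7445822-7455975), rose in total RNA at all 3 times. In total RNA Mmp3 stood at 0.0984, 0 and 0 CPM in naive cord, 1.12, 1.17 and 0.302 on dpi 2, 12.3, 11.04 and 10.1 on dpi 10, with 6.92, 2.63 and 15.03 on dpi 42. In OL RNA Mmp3 stood at 0 CPM in each library in naive cord, 0, 0 and 0.536 on dpi 2, 1.17, 1.56 and 0.1903 on dpi 10, with 1.68, 0.821 and 3.09 on dpi 42. All injured total libraries lay above the naive ones, and those of dpi 10 above all of dpi 2. Against the 3 counts of naive total RNA the ratio was 27.01 (95% exact counting interval 8.95 to 133) on dpi 2 (q = 0.0106), 346 (95% exact counting interval 118 to 1681) on dpi 10 (q = 1.30e-04) and 255 (95% exact counting interval 87.03 to 1240.01) on dpi 42 (q = 3.87e-04), intervals that cover counting error only. In OL RNA Mmp3 was at least 23.8-fold higher on dpi 10 (q = 0.00777) and at least 45.1-fold higher on dpi 42 (q = 0.00127).

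Mmp8, the neutrophil collagenase, rose in total RNA on dpi 2 and dpi 10. In total RNA Mmp8 stood at 0.0328, 0.0967 and 0 CPM in naive cord, 3.39, 2.06 and 1.48 on dpi 2, 2.11, 3.49 and 3.298 on dpi 10, with 0.689, 0.487 and 0.484 on dpi 42. In OL RNA Mmp8 stood at 0 CPM in each library in naive cord, 0.151, 0 and 0 on dpi 2, 0.233, 0 and 0.533 on dpi 10, with 0, 0 and 0.274 on dpi 42. The total libraries of dpi 2 and dpi 10 overlapped and lay above those of naive tissue and dpi 42. Against naive tissue, Log2FC in total RNA was 5.61 (SE 1.55, q = 0.00728) on dpi 2 and 5.97 (SE 1.57, q = 0.00614) on dpi 10, with 4 counts in the naive group. The sum of 8 neutrophil markers was 1.36 to 5.77 CPM in naive total libraries and 17.99 to 40.9 on the injured days. Of these markers 2 were called higher in total RNA on dpi 2 (all tested genes, 10%). On dpi 10 it was 2 (all genes, 9.2%) and on dpi 42 it was 1 (all genes, 6.66%). The part of these markers in the Mmp8 values was not tested.

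Mmp27, a neighbour in the cluster, appeared mainly on dpi 10. In total RNA Mmp27 stood at 0, 0.0645 and 0 CPM in naive cord, 0.196, 0.299 and 0.453 on dpi 2, 1.48, 1.59 and 1.18 on dpi 10, with 0, 0 and 0.0285 on dpi 42. OL libraries held 4 counts of Mmp27 in all, from 1 library of dpi 10. The dpi 10 total libraries stood above all others, with a ratio to the 2 naive counts of 65.8 (95% exact counting interval 17.9 to 548) and q = 0.02104. That call was not made without the total library of pool 1 or 3 of naive tissue (q = 0.0814 to 0.0828). Mmp10, also of this cluster, had 60 counts in total RNA on dpi 10 and 0 in naive libraries, at least 18.03-fold higher, and was not called (q = 0.0724). The sum of 7 microglia and macrophage markers in total RNA ran from 175 to 201 CPM in naive tissue and 765 to 828 on dpi 2. It ran from 1412 to 1805 on dpi 10 and 933 to 1303 on dpi 42. In OL RNA the sum was 10.4 to 16.3 CPM in naive tissue and 42.1 to 63.3 on dpi 2. It was 102 to 142 CPM on dpi 10 and 57.6 to 102 on dpi 42. All 7 markers were called higher in OL RNA on dpi 10 (all tested genes, 6.82%) and on dpi 42 (all genes, 8.54%). The part of these markers in the changes of these MMPs in either kind of RNA was not tested.

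**Figure D4:**
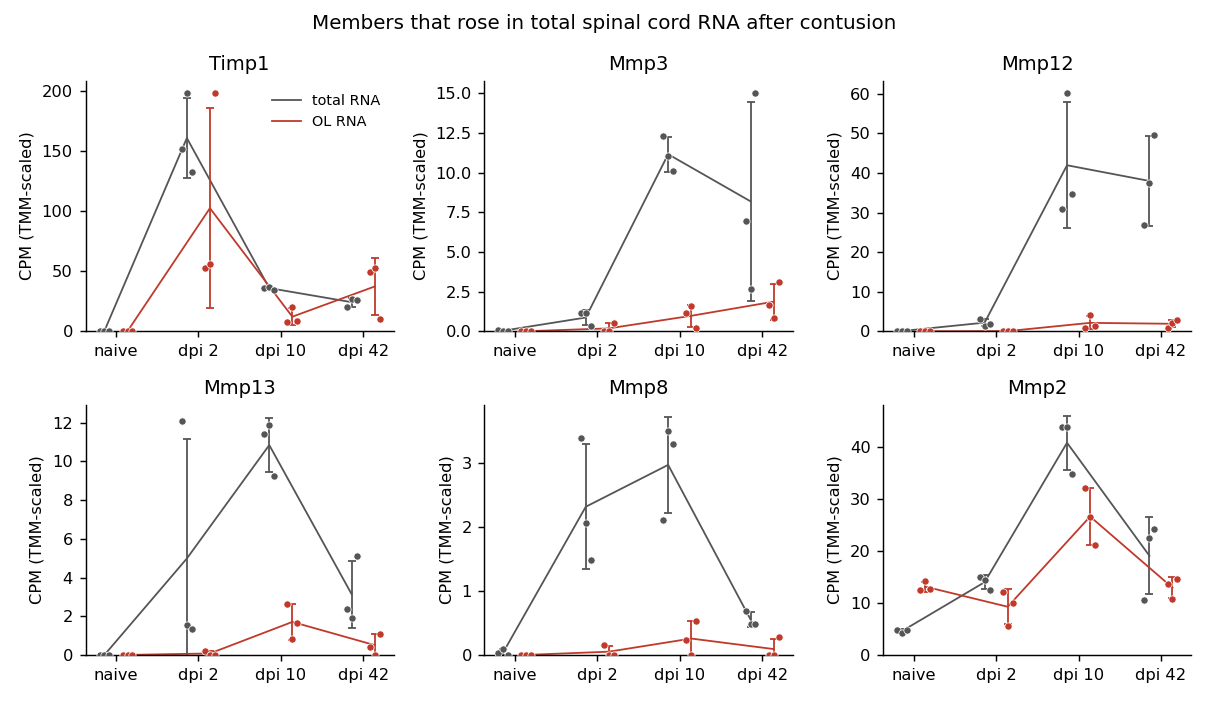
Level in CPM (y axis, linear) of Timp1, Mmp3, Mmp12, Mmp13, Mmp8 and Mmp2 at the 4 times (x axis), 1 point per library with group means ± SD, total RNA and OL RNA in separate colours. Timp1 is highest on dpi 2, with total libraries at 133 to 198 CPM, while Mmp12 stays high on dpi 42.

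Mmp2, the gelatinase that is activated by Mmp14 at the cell surface (chr8:92827291-92853420), rose in total RNA and changed its place between the kinds of RNA. In total RNA Mmp2 stood at 4.79, 4.29 and 4.79 CPM in naive cord, 14.98, 14.5 and 12.5 on dpi 2, 43.96, 43.8 and 34.8 on dpi 10, with 10.6, 22.5 and 24.2 on dpi 42. In OL RNA Mmp2 stood at 12.4, 14.2 and 12.8 CPM in naive cord, 12.2, 5.63 and 9.98 on dpi 2, 32.2, 26.6 and 21.2 on dpi 10, with 13.6, 10.7 and 14.6 on dpi 42. Naive OL libraries were all above naive total libraries, whereas on dpi 2 and on dpi 10 all total libraries were above all OL libraries. The Log2FC in total RNA was 1.6 (SE 0.27, q = 8.37e-05) on dpi 2, 3.14 (SE 0.29, q = 5.37e-08) on dpi 10 and 2.05 (SE 0.28, q = 1.73e-05) on dpi 42. In OL RNA it was 1.02 (SE 0.27, q = 0.00991) on dpi 10, a call not made without the OL library of pool 1 of dpi 10 or the OL library of pool 1 or 3 of naive tissue (log2 0.86 to 0.996, q = 0.0274 to 0.0549). Mmp2 was OL enriched in naive tissue, by 1.51 (SE 0.27, q = 3.39e-04), and in no injured group. Differential OL enrichment, which is the OL change minus the total change with tissue pool as a block, was -2.16 (SE 0.38, q = 0.00254) on dpi 2, -2.14 (SE 0.37, q = 0.00461) on dpi 10 and -1.99 (SE 0.38, q = 0.00725) on dpi 42. These differential calls were made in every alternative tried. The sum of 7 fibroblast and pericyte markers in total RNA ran from 68.3 to 92.8 CPM in naive tissue, 431 to 890 on dpi 2, 2150 to 2423 on dpi 10 and 519 to 846 on dpi 42, and its part in the Mmp2 values was not tested.

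Mmp9, the other gelatinase, was not called as higher on any day. In total RNA Mmp9 stood at 15.5, 18.2 and 15.3 CPM in naive cord, 10.9, 9.15 and 8.71 on dpi 2, 6.29, 6.805 and 5.39 on dpi 10, with 15.5, 8.099 and 4.67 on dpi 42. In OL RNA Mmp9 stood at 1.51, 0.804 and 1.34 CPM in naive cord, 0.605, 0 and 0 on dpi 2, 0.816, 0.723 and 0.571 on dpi 10, with 0, 0 and 0.8999 on dpi 42. Total libraries of dpi 2 and dpi 10 lay below the naive ones, with a Log2FC of -0.77 (q = 0.4804) on dpi 2 and -1.41 (q = 0.197) on dpi 10, neither past both limits. In OL RNA Mmp9 was lower on dpi 2 with a Log2FC of -2.55 (q = 0.0494), a call not made without the OL library of pool 1 or 3 of naive tissue or the OL library of pool 2 or 3 of dpi 2 (log2 -2.03 to -2.53, q = 0.0679 to 0.134). OL libraries held less Mmp9 than total libraries in each group, with a Log2FC of -3.77 (q = 0.00754) in naive tissue, a call not made without pool 2 of naive tissue (log2 -3.43, q = 0.0514). The OL call of dpi 2 was also lost with library sizes alone.

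Mmp11 (stromelysin 3) rose in both kinds of RNA at all 3 times. In total RNA Mmp11 stood at 3.38, 2.71 and 3.39 CPM in naive cord, 8.45, 15.3 and 13.2 on dpi 2, 12.6, 14.1 and 15.5 on dpi 10, with 7.22, 13.5 and 10.2 on dpi 42. In OL RNA Mmp11 stood at 1.89, 2.03 and 3.06 CPM in naive cord, 11.8, 9.64 and 11.7 on dpi 2, 16.7, 18.4 and 15.8 on dpi 10, with 19.6, 11.5 and 15.2 on dpi 42. All injured libraries lay above all naive libraries in both. The Log2FC in OL RNA was 2.24 (SE 0.28, q = 1.71e-06), 2.86 (SE 0.28, q = 3.92e-07) and 2.73 (SE 0.28, q = 5.25e-07) on dpi 2, 10 and 42, and in total RNA 1.96 (SE 0.27, q = 7.16e-06), 2.16 (SE 0.27, q = 3.69e-06) and 1.705 (SE 0.27, q = 9.63e-05). Differential OL enrichment of Mmp11 was 0.34 (q = 0.748), 0.73 (q = 0.419) and 1.06 (q = 0.186), not called.

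Mmp19, a secreted MMP that cleaves basement membrane proteins, rose in total RNA at all 3 times. In total RNA Mmp19 stood at 1.44, 2.71 and 0.792 CPM in naive cord, 26.5, 34.8 and 24.1 on dpi 2, 20.2, 18.2 and 14.7 on dpi 10, with 4.91, 14.8 and 9.73 on dpi 42. In OL RNA Mmp19 stood at 0.336, 0.931 and 2.45 CPM in naive cord, 8.77, 9.32 and 30.6 on dpi 2, 1.86, 8.79 and 4.301 on dpi 10, with 13.7, 7.88 and 2.54 on dpi 42. Total libraries of dpi 2 were the highest, and the OL library of pool 3 of dpi 2, which is high in astrocyte markers, exceeded the other OL libraries. The Log2FC in total RNA was 4.11 (SE 0.74, q = 1.41e-04) on dpi 2, 3.42 (SE 0.72, q = 8.48e-04) on dpi 10 and 2.57 (SE 0.70, q = 0.0106) on dpi 42. In OL RNA it was 3.69 (SE 0.74, q = 4.17e-04) on dpi 2 and 2.68 (SE 0.72, q = 0.00648) on dpi 42. The dpi 42 calls were not made without the total library of pool 2 of dpi 42 or the total library of pool 3 of naive tissue (log2 2.15 to 2.24, q = 0.0548 to 0.0597) for total RNA and without the OL library of pool 1 of dpi 42 (log2 2.003, q = 0.05096) for OL RNA. Without the libraries high in astrocyte markers Mmp19 was depleted from OL RNA at -1.59 (q = 0.0158) in naive tissue, -1.795 (q = 0.00216) on dpi 2 and -1.902 (q = 0.0177) on dpi 42, and with all libraries it was not called there, at -0.59 (q = 0.599), -1.07 (q = 0.249) and -0.48 (q = 0.634).

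Mmp23, a short MMP anchored at its amino end, was called as higher from dpi 10 on. In total RNA Mmp23 stood at 0.623, 0.548 and 0.602 CPM in naive cord, 2.07, 2.06 and 1.39 on dpi 2, 9.46, 10.1 and 11.8 on dpi 10, with 4.67, 8.36 and 8.595 on dpi 42. In OL RNA Mmp23 stood at 0.294, 0.0846 and 0.306 CPM in naive cord, 0.454, 0.446 and 0 on dpi 2, 0.388, 1.37 and 1.79 on dpi 10, with 1.33, 2.76 and 3.05 on dpi 42. Total libraries of dpi 10 and dpi 42 were above all libraries of naive tissue and dpi 2. The total libraries of dpi 2 also lay above the naive ones, a change that was not called. The Log2FC in total RNA was 4.14 (SE 0.70, q = 1.02e-04) on dpi 10 and 3.599 (SE 0.69, q = 6.15e-04) on dpi 42, and in OL RNA it was 2.35 (SE 0.72, q = 0.0266) and 3.35 (SE 0.72, q = 0.00119). The OL call of dpi 10 was not made without the OL library of pool 1 or 2 of naive tissue or the OL library of pool 2 or 3 of dpi 10 (log2 1.91 to 2.56, q = 0.0592 to 0.117).

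Mmp14, the membrane-type enzyme that activates proMMP2, rose in total RNA on dpi 10. In total RNA Mmp14 stood at 29.7, 32.6 and 19.97 CPM in naive cord, 60.7, 72.6 and 64.5 on dpi 2, 103, 119 and 105 on dpi 10, with 41.6, 52.7 and 64.7 on dpi 42. In OL RNA Mmp14 stood at 5.46, 9.01 and 42.2 CPM in naive cord, 17.1, 25.8 and 54.97 on dpi 2, 28.2, 40.7 and 24.7 on dpi 10, with 60.4, 56.2 and 16.1 on dpi 42. In each OL group the libraries high in astrocyte markers were the highest for Mmp14, and the OL groups overlapped. Its total change was 1.99 (SE 0.56, q = 0.00851) on dpi 10 and, not called, 1.27 (q = 0.0754) on dpi 2. In OL RNA it was 0.78 (q = 0.281), 0.72 (q = 0.412) and 1.22 (q = 0.0955), not called. Without the 5 libraries high in astrocyte markers it was 1.504 (q = 7.97e-05), 1.87 (q = 1.83e-05) and 1.14 (q = 0.009796) and was called at each time, the last with 1 OL library on dpi 42. In the same fit Mmp14 was depleted from OL RNA at -1.97 (q = 2.28e-06) in naive tissue, -1.705 (q = 4.99e-06) on dpi 2 and -1.98 (q = 3.99e-05) on dpi 42, where with all libraries it was at -1.099 (q = 0.174), -1.18 (q = 0.108) and -0.42 (q = 0.5897). With all libraries Mmp14 was lower in OL than in total RNA on dpi 10, with a Log2FC of -1.83 (q = 0.0173), a call not made without pool 1 or 3 of dpi 10 (log2 -1.71 to -1.81, q = 0.0732 to 0.0844).

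More members were depleted from OL RNA than enriched in it in each group, an order that all tested genes also had. The depleted share of the members was nearer that of all genes in naive tissue and on dpi 42 than on dpi 2 and dpi 10. OL enrichment compares OL with total RNA of the same pools, called past 0.5 on the log2 scale with q under 0.05. In naive tissue 5 members were enriched and 13 depleted, where 21.3% and 27.2% of all tested genes were. On dpi 2 there were 2 enriched and 19 depleted (all genes, 20.1% and 25.2%). For dpi 10 the counts were 4 and 20 (all genes, 20.9% and 24.9%). For dpi 42 they were 4 and 12 (all genes, 20.6% and 24.9%). Leaving out any 1 pool of dpi 10 left 11 to 15 calls on that day. The median of the members was -1.87 against -0.31 over all tested genes in naive tissue. With genes that have no count in a group put at their bound, that member median was -1.52. With library sizes alone as the scaling, the median of all genes moved by -0.51 in naive tissue, -0.57 on dpi 2, -0.58 on dpi 10 and -0.50 on dpi 42. The members were then 5 higher and 18 lower, 1 higher and 25 lower, 2 higher and 26 lower and 1 higher and 16 lower, and the higher share of all calls was 22.6% against 43.98%, 16.5% against 44.3%, 18.04% against 45.6% and 20.5% against 45.3%. Values are given with TMM factors, and calls lost under library sizes alone are named.

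Adamts4, aggrecanase 1, which cleaves the lecticans of the perineuronal matrix (chr1:171250421-171260637), had the highest OL enrichment among called members in every group. In total RNA Adamts4 stood at 114, 118 and 107 CPM in naive cord, 98.6, 76.4 and 84.2 on dpi 2, 124, 119 and 113 on dpi 10, with 87.7, 109 and 102 on dpi 42. In OL RNA Adamts4 stood at 931, 952 and 786 CPM in naive cord, 587, 446 and 425 on dpi 2, 811, 692 and 688 on dpi 10, with 515, 569 and 691 on dpi 42. Each OL library held several times the level of each total library, and OL libraries of dpi 2 were all below the naive ones. OL enrichment was 2.98 (SE 0.09, q = 2.40e-10) in naive tissue, 2.48 (SE 0.09, q = 8.34e-10) on dpi 2, 2.62 (SE 0.09, q = 4.65e-10) on dpi 10 and 2.57 (SE 0.09, q = 6.28e-10) on dpi 42. Its OL change was -0.87 (SE 0.13, q = 2.20e-05) on dpi 2, under the limit of 1, and differential OL enrichment was -0.49 (q = 0.0172).

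Adamts1, an inducible proteoglycanase, turned from enriched to depleted on dpi 2. In total RNA Adamts1 stood at 19.9, 20.3 and 18.4 CPM in naive cord, 56.9, 88.1 and 61.1 on dpi 2, 37.1, 34.9 and 32.98 on dpi 10, with 18.5, 24.6 and 26.7 on dpi 42. In OL RNA Adamts1 stood at 50.9, 64.1 and 46.3 CPM in naive cord, 26, 23.7 and 53.6 on dpi 2, 59.6, 70.5 and 44.6 on dpi 10, with 56.8, 30.3 and 50.4 on dpi 42. On dpi 2 total libraries rose above all other total libraries while 2 of 3 OL libraries lay below the naive ones, the exception being pool 3, which is high in astrocyte markers. The total change on dpi 2 was 1.81 (SE 0.28, q = 2.30e-05), and the OL change was -0.64 (SE 0.27, q = 0.0654), not called, or -1.27 (q = 3.90e-05) without the 5 libraries high in astrocyte markers. OL enrichment was 1.45 (SE 0.28, q = 6.31e-04) in naive tissue, -1.07 (SE 0.28, q = 0.00653) on dpi 2, 0.71 (SE 0.27, q = 0.0457) on dpi 10 and 0.95 (SE 0.28, q = 0.0125) on dpi 42. The dpi 2 value was not called without pool 2 of dpi 2 (log2 -0.66, q = 0.0834), the dpi 10 value without pool 1, 2 or 3 of dpi 10 (log2 0.56 to 0.85, q = 0.0695 to 0.217) and the dpi 42 value without pool 1 of dpi 42 (log2 0.61, q = 0.127), and the dpi 10 and dpi 42 calls were also lost with library sizes alone. Differential OL enrichment on dpi 2 was -2.52 (SE 0.40, q = 0.00143) and was called in every alternative.

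Adamts2, the procollagen N-proteinase that trims collagen precursors, was OL enriched in all 4 groups. In total RNA Adamts2 stood at 27.8, 24.5 and 22.6 CPM in naive cord, 16.7, 16.9 and 16.8 on dpi 2, 48.7, 46.4 and 44.9 on dpi 10, with 32.2, 36.9 and 36.7 on dpi 42. In OL RNA Adamts2 stood at 84.6, 90.1 and 60.2 CPM in naive cord, 35.9, 28.7 and 27.05 on dpi 2, 102, 73.2 and 91.01 on dpi 10, with 62.3, 64.5 and 75.4 on dpi 42. OL libraries lay above total libraries in each group, and both kinds were lowest on dpi 2. OL enrichment was 1.63 (SE 0.13, q = 1.62e-07), 0.85 (SE 0.13, q = 8.50e-05), 0.92 (SE 0.12, q = 3.75e-05) and 0.93 (SE 0.12, q = 3.26e-05) in the order of time, the last 3 lost with library sizes alone. The OL change on dpi 2 was -1.36 (SE 0.15, q = 3.87e-07). From dpi 2 to dpi 10 it rose in both OL RNA, by 1.54 (q = 2.96e-07), and total RNA, by 1.47 (q = 2.31e-06).

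Mmp15, a membrane-type MMP (chr8:95352268-95375080), was the MMP with the highest OL level per kb and lost its enrichment on dpi 2. In total RNA Mmp15 stood at 78.8, 84.2 and 83.01 CPM in naive cord, 56.4, 54.5 and 57.6 on dpi 2, 62.97, 54.9 and 60.5 on dpi 10, with 88.5, 65.3 and 61.4 on dpi 42. In OL RNA Mmp15 stood at 177, 197 and 147 CPM in naive cord, 63.8, 58.3 and 55.5 on dpi 2, 137, 125 and 151 on dpi 10, with 112, 136 and 143 on dpi 42. The OL libraries of dpi 2 were far below all other OL libraries and overlapped the total libraries of the same day. Against naive tissue the OL change was -1.55 (SE 0.13, q = 1.16e-08) on dpi 2, and by dpi 10 the level had risen again, by 1.22 (q = 9.83e-07) against dpi 2. OL enrichment was 1.07 (SE 0.14, q = 2.65e-05) in naive tissue, 0.07 (SE 0.14, q = 0.694) on dpi 2, 1.21 (SE 0.14, q = 1.16e-05) on dpi 10 and 0.87 (SE 0.14, q = 2.00e-04) on dpi 42, the last lost with library sizes alone. Differential OL enrichment on dpi 2 was -1.0002 (SE 0.20, q = 0.00569), at the limit, and was not called without pool 1 or 2 of naive tissue (log2 -0.92 to -0.95, q = 0.0264 to 0.0307).

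Differential OL enrichment was called for 3 members higher and 4 lower on dpi 2 (all tested genes, 2.95% and 2.52%). Dpi 10 had 1 and 1 (all genes, 1.39% and 1.32%). Dpi 42 had 3 and 1 (all genes, 1.44% and 1.22%). With library sizes alone the higher share of all calls on dpi 10 was 40.3% against 51.3%, and the members were 1 higher and 1 lower. The two-arm filtration of the study asks for an OL change past 1. To this it joins either a differential OL enrichment past 1 that points the same way, or an OL enrichment over 1 both before injury and on that day. On dpi 2 it was passed by 4 members, Adamts5, Mmp17, Mmp15 and Adamts16, and by 3.45% of all tested genes. On dpi 10 it was passed by 1 member, Mmp17 (0.816% of all genes). On dpi 42 it was passed by 3 members, Adamts5, Mmp17 and Mmp24 (1.66% of all genes). Over the 3 days it was passed 8 times, against 4 without naive pool 1 and 3 without naive pool 2. All passed through the first condition, and the OL change and the differential value share the OL libraries.

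Mmp17, a membrane-type MMP held by a lipid anchor (chr5:129584169-129611099), rose in OL RNA while its level in total RNA was lower after injury. In total RNA Mmp17 stood at 38.2, 44.7 and 39.7 CPM in naive cord, 20.8, 21.1 and 25.9 on dpi 2, 23.8, 17.96 and 22.1 on dpi 10, with 36.1, 25.1 and 25.6 on dpi 42. In OL RNA Mmp17 stood at 2.44, 1.35 and 2.104 CPM in naive cord, 9.45, 21.3 and 15.3 on dpi 2, 6.45, 7.95 and 6.24 on dpi 10, with 3.29, 4.89 and 4.77 on dpi 42. Every injured OL library was above every naive OL library, highest on dpi 2, and every injured total library was below every naive total library. The OL change was 2.96 (SE 0.28, q = 4.01e-08) on dpi 2, 1.805 (SE 0.27, q = 7.09e-05) on dpi 10 and 1.13 (SE 0.27, q = 0.00276) on dpi 42. The total change was -0.86 (SE 0.24, q = 0.00821), -0.94 (SE 0.24, q = 0.00495) and -0.50 (SE 0.24, q = 0.157), under the limit of 1. Differential OL enrichment was 3.77 (SE 0.41, q = 1.34e-04), 2.77 (SE 0.41, q = 0.00158) and 1.66 (SE 0.41, q = 0.0275). The dpi 42 value was not called without pool 2 or 3 of dpi 42 or pool 2 of naive tissue (log2 1.36 to 1.49, q = 0.07196 to 0.124), nor without the libraries high in astrocyte markers, at 1.91 (q = 0.0737). The OL change of dpi 42 was not called without the OL library of pool 2 or 3 of dpi 42 or the OL library of pool 2 of naive tissue (log2 0.87 to 0.99, q = 0.0141 to 0.0303). Mmp17 was depleted from naive OL RNA, with a Log2FC of -4.396 (SE 0.32, q = 9.40e-08), and on dpi 2 the OL and total groups stood at 15.3 ± 5.91 CPM and 22.6 ± 2.85 CPM (mean ± SD, n = 3).

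Adamts5, aggrecanase 2 (chr16:85856173-85901828), which lies beside Adamts1 on chromosome 16, rose in OL RNA at all 3 times. In total RNA Adamts5 stood at 13.7, 14.1 and 12.5 CPM in naive cord, 26.2, 34.5 and 30.3 on dpi 2, 17.4, 16.1 and 16.3 on dpi 10, with 13.2, 13.97 and 20.3 on dpi 42. In OL RNA Adamts5 stood at 1.34, 1.02 and 4.67 CPM in naive cord, 13, 19.2 and 25.2 on dpi 2, 10.8, 6.09 and 7.73 on dpi 10, with 9.72, 15.5 and 9.16 on dpi 42. All injured OL libraries were above all naive OL libraries, and total libraries were highest on dpi 2. The OL change was 3.02 (SE 0.41, q = 5.21e-06), 1.799 (SE 0.40, q = 0.00293) and 2.28 (SE 0.40, q = 1.71e-04) on dpi 2, 10 and 42. The total change on dpi 2 was 1.18 (SE 0.37, q = 0.016), a call not made without the total library of pool 2 of dpi 2 or the total library of pool 3 of naive tissue (log2 1.07 to 1.13, q = 0.0559 to 0.0586). Differential OL enrichment was 2.08 (SE 0.54, q = 0.0229) on dpi 2 and 2.31 (SE 0.55, q = 0.0226) on dpi 42. These calls were not made without pool 1 or 2 of naive tissue or pool 2 or 3 of dpi 2 (log2 1.61 to 2.15, q = 0.0529 to 0.107) and without pool 1 or 2 of dpi 42 or pool 1 or 2 of naive tissue (log2 1.84 to 2.28, q = 0.0552 to 0.104).

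Mmp24, a membrane-type MMP known from neurons, was depleted from OL RNA in all groups. In total RNA Mmp24 stood at 33.7, 29.1 and 28.8 CPM in naive cord, 21.2, 16.99 and 22.4 on dpi 2, 20.8, 17.2 and 20.02 on dpi 10, with 20.6, 23.01 and 20.6 on dpi 42. In OL RNA Mmp24 stood at 2.65, 2.16 and 1.99 CPM in naive cord, 3.099, 2.59 and 3.94 on dpi 2, 2.29, 3.04 and 4.64 on dpi 10, with 6.47, 5.08 and 3.17 on dpi 42. All injured total libraries were below the naive ones, while the OL libraries of dpi 42 were above the naive ones. OL enrichment was -3.76 (SE 0.26, q = 4.89e-08) in naive tissue and -2.17 (SE 0.24, q = 5.63e-06) on dpi 42. The OL change on dpi 42 was 1.12 (SE 0.26, q = 0.00214), not called without the OL library of pool 1 of dpi 42 or the OL library of pool 3 of naive tissue (log2 0.82 to 0.96, q = 0.0137 to 0.0281) and at 0.38 (q = 0.474) without the libraries high in astrocyte markers. Differential OL enrichment was 1.09 (SE 0.33, q = 0.0469) on dpi 2, not called without pool 1, 2 or 3 of dpi 2 or pool 1, 2 or 3 of naive tissue (log2 0.81 to 1.15, q = 0.08495 to 0.218), and 1.58 (SE 0.33, q = 0.0124) on dpi 42, not called without pool 2 of naive tissue (log2 1.59, q = 0.0529). The differential call of Mmp24 on dpi 2 was also lost with library sizes alone. The sum of 6 neuronal markers in total RNA was 7816 to 8329 CPM in naive tissue and 3467 to 6541 after injury. In OL RNA the sum was 677 to 769 CPM in naive tissue and 891 to 1334 on dpi 2. It was 586 to 699 CPM on dpi 10 and 570 to 744 on dpi 42. Differential OL enrichment was called higher for 2 of the 6 markers on dpi 2 (all tested genes, 2.95%). It was called higher for 1 on dpi 10 (all genes, 1.39%) and 0 on dpi 42 (all genes, 1.44%). The part of these markers in the Mmp24 and Mmp17 values was not tested.

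Adamts16, whose substrates are less known, was lost from OL RNA on dpi 2. In total RNA Adamts16 stood at 2.52, 2.16 and 1.77 CPM in naive cord, 0.672, 0.179 and 2.72 on dpi 2, 1.87, 3.86 and 3.56 on dpi 10, with 3.03, 1.69 and 4.18 on dpi 42. In OL RNA Adamts16 stood at 1.26, 0.338 and 0.765 CPM in naive cord, 0 in each library on dpi 2, 0.155, 1.33 and 1.03 on dpi 10, with 1.54, 1.05 and 1.57 on dpi 42. The OL libraries of dpi 2 held no count, whereas each other OL library held some. Adamts16 was at least 20.3-fold lower than in naive OL RNA (q = 4.14e-04) and at least 30.2-fold lower in OL than in total RNA on dpi 2 (q = 3.91e-04). Its differential OL enrichment on dpi 2 passed the test (q = 0.0187), though not without pool 1 of naive tissue or pool 3 of dpi 2 (q = 0.0585 to 0.0877).

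**Figure D5:**
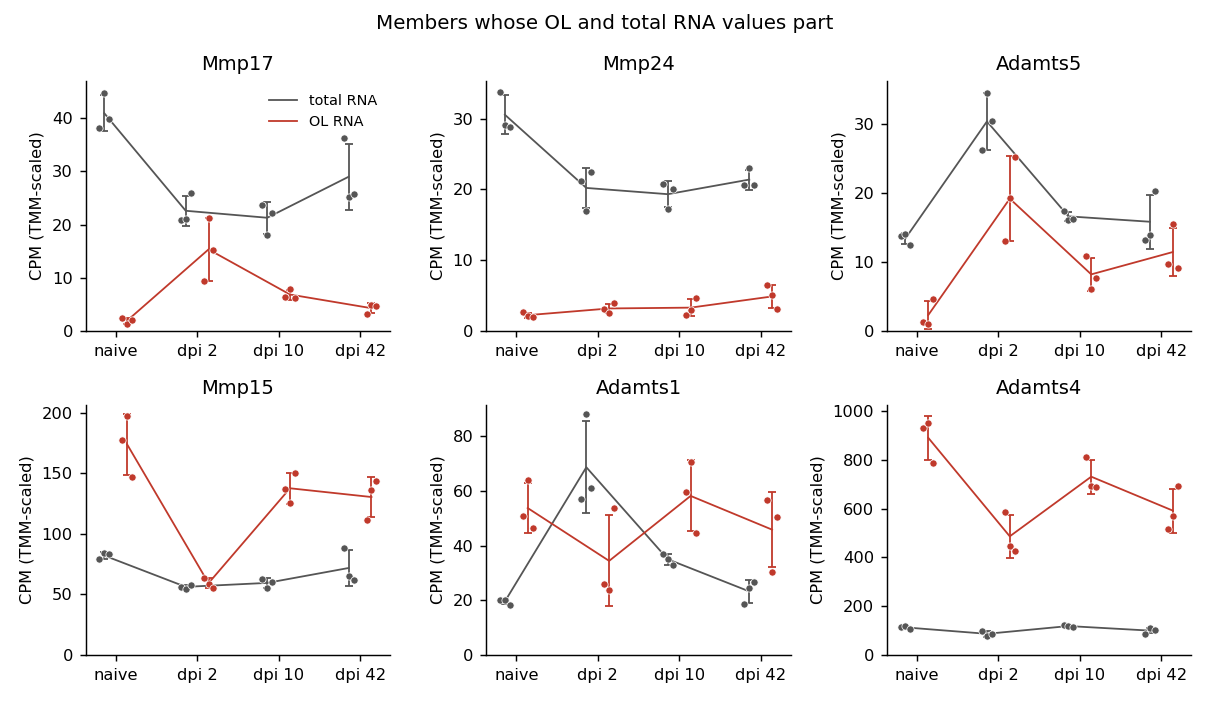
Level in CPM (y axis) of Mmp17, Mmp24, Adamts5, Mmp15, Adamts1 and Adamts4 at the 4 times (x axis), 1 point per library with group means ± SD, total RNA and OL RNA in separate colours. For Mmp17 the OL libraries stand at 1.35 to 2.44 CPM in naive tissue and at 9.45 to 21.3 on dpi 2, while the total libraries stand at 38.2 to 44.7 CPM in naive tissue and 20.8 to 25.9 on dpi 2.

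Among the other ADAMTS genes, several rose in OL RNA from very low levels. Adamts17, a fibrillin-related enzyme, stood in OL RNA at 0.08404, 0 and 0.115 CPM in naive cord, 0, 0.486 and 1.07 on dpi 2, 1.86, 0.875 and 1.98 on dpi 10, with 1.29, 0.56 and 0.4695 on dpi 42. In total RNA Adamts17 stood at 2.66, 2.096 and 3.49 CPM in naive cord, 0.728, 0.867 and 1.12 on dpi 2, 3.83, 2.91 and 3.07 on dpi 10, with 2.04, 2.003 and 1.85 on dpi 42. Its OL libraries of dpi 10 and dpi 42 lay above the naive ones, and its total libraries of dpi 2 below them. Its OL change was 2.87 (SE 0.99, q = 0.0254), 4.46 (SE 0.999, q = 0.00322) and 3.45 (SE 0.98, q = 0.00984), over 5 naive counts. The dpi 2 call was not made without the OL library of pool 1 or 2 of naive tissue or the OL library of pool 3 of dpi 2 (log2 1.71 to 2.98, q = 0.0609 to 0.206) and the dpi 42 call without the OL library of pool 2 of naive tissue (log2 2.84, q = 0.0501). The total change on dpi 2 was -1.598 (q = 0.1303).

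Adamts15, a proteoglycanase, stood in OL RNA at 0.126, 0.127 and 0.344 CPM in naive cord, 1.63, 3.04 and 0.459 on dpi 2, 0.893, 2.32 and 2.51 on dpi 10, with 0, 1.31 and 1.64 on dpi 42. In total RNA Adamts15 stood at 2.39, 2.97 and 3.68 CPM in naive cord, 2.66, 5.803 and 4.32 on dpi 2, 8.13, 10.7 and 8.98 on dpi 10, with 3.39, 3.21 and 4.58 on dpi 42. All OL libraries of dpi 2 and dpi 10 were above the naive ones. OL RNA changed by 3.06 (SE 0.90, q = 0.00993) on dpi 2 and 3.22 (SE 0.90, q = 0.0154) on dpi 10, not called without the OL library of pool 2 of dpi 2 (log2 2.299, q = 0.06198) and without the OL library of pool 1 or 2 of naive tissue (log2 2.99, q = 0.0686 to 0.0706). The total change on dpi 10 was 1.62 (q = 0.115).

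Adamts14, a procollagen N-proteinase like Adamts2, had no count in naive OL libraries. In OL RNA Adamts14 stood at 0 CPM in each library in naive cord, 1.81, 0 and 0.536 on dpi 2, 0.466, 0.799 and 0.381 on dpi 10, with 0, 0 and 0.861 on dpi 42. In total RNA Adamts14 stood at 0.0984, 0.0322 and 0.254 CPM in naive cord, 1.43, 4.55 and 0.393 on dpi 2, 2.11, 1.53 and 1.43 on dpi 10, with 0.2098, 0.458 and 0.797 on dpi 42. Total libraries of dpi 2 and dpi 10 were above the naive ones, and OL libraries of dpi 2 overlapped them at 0. Adamts14 was at least 19.7-fold higher in OL RNA on dpi 2 (q = 0.0137) and at least 13.5-fold higher on dpi 10 (q = 0.0397). The first call was not made without the OL library of pool 1 of dpi 2 (q = 0.0579), and the second not without the OL library of pool 1, 2 or 3 of dpi 10 or the OL library of pool 1, 2 or 3 of naive tissue (q = 0.0582 to 0.108).

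Adamts7 and Adamts12, which cleave cartilage oligomeric matrix protein, shared a rise in total RNA on dpi 10. In total RNA Adamts7 stood at 0.0656, 0.2902 and 0.1902 CPM in naive cord, 1.204, 0.658 and 0.181 on dpi 2, 2.05, 2.08 and 1.81 on dpi 10, with 0.629, 0.601 and 0.37 on dpi 42. In OL RNA Adamts7 stood at 0 CPM in each library in naive cord, 0 in each library on dpi 2, 1.28, 0.685 and 1.18 on dpi 10, with 0.385, 0 and 0.783 on dpi 42. Every library of dpi 10 exceeded every naive library in both kinds of RNA. Adamts7 was at least 25.7-fold higher in OL RNA on dpi 10 (q = 0.00311) and at least 9.39-fold higher on dpi 42 (q = 0.006201). Its total change on dpi 10 was 3.41 (SE 1.15, q = 0.0303), a call not made without the total library of pool 1, 2 or 3 of dpi 10 or the total library of pool 1, 2 or 3 of naive tissue (log2 3.02 to 3.904, q = 0.0557 to 0.114). In total RNA Adamts12 stood at 0.328, 0.322 and 1.01 CPM in naive cord, 1.01, 1.65 and 2.902 on dpi 2, 6.91, 9.05 and 8.43 on dpi 10, with 0.1798, 0.229 and 1.11 on dpi 42. In OL RNA Adamts12 stood at 0.252, 0.0846 and 0.6502 CPM in naive cord, 0 in each library on dpi 2, 1.94, 0.419 and 1.37 on dpi 10, with 0.454, 0 and 0 on dpi 42. Its total libraries of dpi 10 were above all others, and no OL library of dpi 2 held a count. The OL libraries of dpi 10 overlapped the naive ones, with an OL change of 1.89 (q = 0.247), not called. The total change of Adamts12 was 3.86 (SE 1.096, q = 0.0103) on dpi 10, not called without the total library of pool 1 or 2 of naive tissue (log2 3.59 to 3.596, q = 0.0505 to 0.05198), and in OL RNA it was at least 8.75-fold lower on dpi 2 (q = 0.0133).

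Adamts10, which binds fibrillin, rose in both kinds of RNA on dpi 10. In total RNA Adamts10 stood at 2.46, 3.45 and 5.99 CPM in naive cord, 8.902, 9.93 and 10.4 on dpi 2, 20.7, 20.6 and 19.01 on dpi 10, with 8.57, 16.2 and 19.3 on dpi 42. In OL RNA Adamts10 stood at 0.798, 0.465 and 2.29 CPM in naive cord, 1.55, 1.01 and 4.25 on dpi 2, 4.35, 7.11 and 12.98 on dpi 10, with 2.06, 3.85 and 1.68 on dpi 42. Injured total libraries were above the naive ones at each time, and OL libraries only on dpi 10. The total change was 2.34 (SE 0.55, q = 0.00223) on dpi 10 and 1.89 (SE 0.54, q = 0.0149) on dpi 42, the latter not called without the total library of pool 1 or 2 of naive tissue or the total library of pool 3 of dpi 42 (log2 1.64 to 1.797, q = 0.0625 to 0.0762). The OL change on dpi 10 was 2.77 (SE 0.58, q = 0.00193). Fibroblast and pericyte markers in OL libraries summed to 50.9 to 96.5 CPM in naive tissue and 556 to 647 on dpi 10, and their part in the OL values of Adamts10 and Mmp2 was not tested.

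Adamts20, a proteoglycanase known from pigment cell migration, fell in both kinds of RNA on dpi 2. In total RNA Adamts20 stood at 8.75, 6.87 and 7.38 CPM in naive cord, 3.08, 2.27 and 3.72 on dpi 2, 14.03, 11.4 and 12.8 on dpi 10, with 5.99, 9.33 and 12.4 on dpi 42. In OL RNA Adamts20 stood at 8.24, 11.04 and 12.5 CPM in naive cord, 3.97, 1.46 and 7.19 on dpi 2, 14.3, 15.7 and 16.9 on dpi 10, with 14.8, 13.5 and 7.199 on dpi 42. The dpi 2 libraries were below all naive libraries of their kind and below those of dpi 10. The change on dpi 2 was -1.33 (SE 0.39, q = 0.0102) in OL and -1.34 (SE 0.39, q = 0.01003) in total RNA, not called without the OL library of pool 2 of dpi 2 (log2 -0.99, q = 0.02805) and without the total library of pool 2 of dpi 2 (log2 -1.17, q = 0.0557). It rose from dpi 2 to dpi 10 by 1.89 (q = 0.00139) in OL and by 2.08 (q = 0.00191) in total RNA.

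Adamts6, a fibrillin-related enzyme, fell in OL RNA on dpi 2. In total RNA Adamts6 stood at 4.69, 4.13 and 5.36 CPM in naive cord, 2.91, 2.18 and 4.35 on dpi 2, 5.04, 3.98 and 4.88 on dpi 10, with 1.68, 2.72 and 3.36 on dpi 42. In OL RNA Adamts6 stood at 3.82, 3.004 and 2.83 CPM in naive cord, 1.29, 0.608 and 1.49 on dpi 2, 1.59, 2.36 and 3.58 on dpi 10, with 0.489, 2.84 and 2.19 on dpi 42. The OL libraries of dpi 2 were all below the naive ones. Its OL change on dpi 2 was -1.51 (SE 0.51, q = 0.0246), not called without the OL library of pool 1 of naive tissue or the OL library of pool 2 of dpi 2 (log2 -1.27 to -1.42, q = 0.0636 to 0.08604).

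Of the members called only for their place between OL and total RNA, Adamts3, the procollagen N-proteinase that processes VEGF-C, had few counts in OL RNA. In total RNA Adamts3 stood at 11.7, 11.3 and 11.3 CPM in naive cord, 3.75, 2.87 and 4.75 on dpi 2, 4.69, 3.29 and 3.9 on dpi 10, with 6.86, 4.35 and 4.41 on dpi 42. In OL RNA Adamts3 stood at 0.168, 0.761 and 0.6502 CPM in naive cord, 0, 0 and 0.383 on dpi 2, 0.194, 0 and 0 on dpi 10, with 0.3496, 0.709 and 0 on dpi 42. All OL libraries were below all total libraries, and injured total libraries were below the naive ones. OL enrichment was -4.58 (q = 0.00301), -5.55 (q = 0.00243), -6.24 (q = 0.00133) and -4.29 (q = 0.00632). The total change on dpi 2 was -1.59 (q = 0.146).

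Adamts9, which cleaves versican, was depleted at each time. In total RNA Adamts9 stood at 4.82, 5.19 and 5.64 CPM in naive cord, 9.91, 10.2 and 10.1 on dpi 2, 8.07, 8.85 and 8.09 on dpi 10, with 5.09, 6.497 and 5.27 on dpi 42. In OL RNA Adamts9 stood at 1.64, 1.48 and 2.98 CPM in naive cord, 1.51, 2.92 and 3.56 on dpi 2, 0.971, 2.82 and 2.06 on dpi 10, with 3.88, 2.02 and 1.57 on dpi 42. Total libraries of dpi 2 and dpi 10 were above the naive ones and no OL library reached the lowest total library. OL enrichment was -1.42 (q = 0.0112), -1.996 (q = 0.00147), -2.205 (q = 7.49e-04) and -1.27 (q = 0.0218), and the total change on dpi 2 was 0.95 (q = 0.0607), under the limit. The naive and dpi 42 calls were not made without pool 1 or 2 of naive tissue (log2 -1.23 to -1.35, q = 0.06004 to 0.0793) and without pool 2 or 3 of dpi 42 (log2 -1.03 to -1.06, q = 0.122).

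Mmp16, a membrane-type MMP, was likewise called only as depleted. In total RNA Mmp16 stood at 15.5, 14.8 and 17.2 CPM in naive cord, 15.5, 12.8 and 17.7 on dpi 2, 11.6, 13.9 and 9.23 on dpi 10, with 10.5, 5.07 and 6.83 on dpi 42. In OL RNA Mmp16 stood at 3.49, 2.83 and 3.29 CPM in naive cord, 1.78, 1.46 and 1.15 on dpi 2, 2.02, 2.397 and 4.53 on dpi 10, with 0.0699, 1.75 and 2.7 on dpi 42. All OL libraries were below all total libraries of their group. OL enrichment was -2.304 (q = 0.0116), -3.396 (q = 0.00157), -2.03 (q = 0.0261) and -2.61 (q = 0.0122). The naive call was not made without pool 2 of naive tissue (log2 -2.27, q = 0.0536), nor the dpi 10 call without pool 1 or 2 of dpi 10 (log2 -1.76 to -1.77, q = 0.129 to 0.134).

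Adamts8, a proteoglycanase, and Mmp25, a membrane-type MMP known from leukocytes, had few counts in OL RNA. In total RNA Adamts8 stood at 1.38, 0.838 and 0.729 CPM in naive cord, 1.34, 2.84 and 2.51 on dpi 2, 0.949, 0.779 and 1.03 on dpi 10, with 0.599, 0.458 and 1.51 on dpi 42. OL libraries held between 0 and 0.699 CPM of Adamts8 and none on dpi 2. On dpi 2 it was at least 56.9-fold lower in OL than in total RNA (q = 0.0102). In naive tissue the ratio of OL to total was 0.0278 (95% exact counting interval 0.00332 to 0.103), over 2 counts, and that call (q = 0.0478) was not made without pool 1, 2 or 3 of naive tissue (q = 0.0589 to 0.178). In total RNA Mmp25 stood at 0.328, 0.0645 and 0.254 CPM in naive cord, 1.76, 2.06 and 0.514 on dpi 2, 1.07, 0.634 and 1.84 on dpi 10, with 3.87, 0.658 and 0.427 on dpi 42. OL libraries held no count of Mmp25 before dpi 42 and at most 0.352 CPM then. It was at least 37.5-fold lower in OL RNA on dpi 2 (q = 0.0331) and at least 30.8-fold lower on dpi 10 (q = 0.0355). The first call was not made without pool 1, 2 or 3 of dpi 2 (q = 0.0518 to 0.0899), nor the second without pool 1, 2 or 3 of dpi 10 (q = 0.0731 to 0.101).

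Changes between the injured times were tested in each kind of RNA. From dpi 2 to dpi 10, 12 members rose and 3 fell in OL RNA (all tested genes, 4.35% and 3%). In total RNA 6 rose and 1 fell over that time (all genes, 1.07% and 0.967%). The 3 that fell in OL RNA were Timp1, Adamts5 at -1.22 (q = 0.0224) and Mmp17 at -1.16 (q = 0.00188). The Adamts5 call was not made without the OL library of pool 2 or 3 of dpi 10 or the OL library of pool 2 or 3 of dpi 2 (log2 -0.91 to -1.16, q = 0.0545 to 0.114), nor the Mmp17 call without the OL library of pool 2 of dpi 2 (log2 -0.79, q = 0.0284). Of those that rose in total RNA, Mmp12 rose by 4.27 (q = 1.58e-04), Mmp3 by 3.69 (q = 0.0301), Mmp23 by 2.503 (q = 0.01701) and Mmp2 by 1.54 (q = 7.77e-04). The Mmp3 call was not made without the total library of pool 1, 2 or 3 of dpi 10 or the total library of pool 1, 2 or 3 of dpi 2 (log2 3.28 to 3.96, q = 0.0678 to 0.118), and the Mmp23 call not without the total library of pool 1, 2 or 3 of dpi 2 or the total library of pool 3 of dpi 10 (log2 2.34 to 2.596, q = 0.0505 to 0.0764). From dpi 10 to dpi 42, 0 rose and 1 fell in OL RNA (0.483% and 1.22% of all genes), the latter being Mmp2 at -1.04 (q = 0.0227), a call not made without the OL library of pool 1 of dpi 10 or the OL library of pool 1 or 2 of dpi 42 (log2 -0.94 to -1.11, q = 0.0639 to 0.09096). In total RNA 0 rose and 0 fell (0% and 0.0757% of all genes) by edgeR, and 1 member was called by DESeq2. By the edgeR test 7 of the 40 members had an unadjusted p under 0.05, as did 1779 of all 17167 tested genes.

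The members not called against naive tissue or between OL and total RNA were Adamts18, Adamts19, Mmp10, Mmp28 and Timp4. Mmp28, an MMP of resting epithelia that is also made by neural cells, ran from 3.64 to 7.48 CPM (median 6.37) in total libraries and from 3.12 to 7.23 (median 5.18) in OL libraries. Adamts19 was called only between dpi 2 and dpi 10 in OL RNA, where it was at least 11.8-fold higher (q = 0.0339), a call not made without the OL library of pool 1 or 3 of dpi 10 or the OL library of pool 1, 2 or 3 of dpi 2 (q = 0.0502 to 0.0791). Adamts18 reached at most 0.998 CPM in a total library and 0.190 CPM in an OL library. Adamts13, the von Willebrand factor protease, and Mmp7 and Mmp21 had 8, 7 and 2 counts over all libraries.

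Calls were compared with and without the 5 OL libraries high in astrocyte markers, an alternative chosen after seeing the data. Calls lost or made by this step were counted for the members only. Without the same count over all tested genes, they cannot be read as particular to the members. Without them, and with 1 OL library left on dpi 42 that is taken to vary like the other groups, 19 calls were not made and 46 others were. In 5 of the 19 the fitted fold was as large as with all libraries or larger, in a fit of fewer libraries. Among the OL changes not made, Adamts17 was at 2.33 (q = 0.137) against 2.87 on dpi 2 and 3.34 (q = 0.0662) against 3.45 on dpi 42, Adamts14 had q = 0.0595 on dpi 10 and Mmp24 stood at the value in its own account. Between times, Adamts5 was at -0.73 (q = 0.02801) against -1.22 and Mmp23 at 1.34 (q = 0.107) against 1.97 from dpi 2 to dpi 10, and Mmp2 at -0.89 (q = 0.269) against -1.04 from dpi 10 to dpi 42. Of the depleted members on dpi 42, Adamts15 was at -1.44 (q = 0.1704) against -2.52, Adamts9 at -1.71 (q = 0.0621) against -1.27, Mmp13 at -2.19 (q = 0.07895) against -3.19, Mmp16 at -1.31 (q = 0.0774) against -2.61 and Mmp9 at -2.34 (q = 0.0683) against -5.74. Mmp12 had q = 0.0593 in naive tissue, Adamts6 was at -1.54 (q = 0.0629) against -1.51 on dpi 2 and Adamts16 at -2.51 (q = 0.0713) against -2.21 on dpi 10. The calls of Adamts6 and Adamts16 were also lost without pool 2 or 3 of dpi 2 (log2 -1.36 to -1.54, q = 0.0541 to 0.07096) and without pool 1, 2 or 3 of dpi 10 (log2 -1.66 to -2.599, q = 0.0608 to 0.148). The differential value of Adamts16 on dpi 2 had q = 0.204, and those of Mmp24 were 0.75 (q = 0.245) on dpi 2 and 0.88 (q = 0.365) on dpi 42.

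Of the calls made only without those libraries, the OL enrichment calls were each a depletion. Leaving out OL libraries picked for high astrocyte markers lowers the OL mean of genes that follow those markers. For such genes this direction was partly set by the choice of libraries. Beside those of the TIMPs, Mmp14 and Mmp19 given above, Adamts5 was depleted at -0.97 (q = 0.00299) on dpi 2 and -1.12 (q = 0.0133) on dpi 42 and Mmp2 at -0.86 (q = 0.0199) on dpi 2, with Mmp3 on dpi 2 at q = 0.00241 and Adamts12 on dpi 42 at q = 0.0209. Another 14 were OL changes against naive tissue. Mmp19 rose on dpi 10 at 2.28 (q = 0.00834), Adamts12 on dpi 10 at 3.26 (q = 0.0157) and Adamts15 on dpi 42 at 3.64 (q = 0.00126), and Mmp16 fell on dpi 2 at -1.02 (q = 0.0396). Adamts3 fell on dpi 2 (q = 0.00104) and dpi 42 (q = 0.0184), whereas Adamts14 rose on dpi 42 (q = 0.0343) and Mmp8 on dpi 10 (q = 0.0132) and dpi 42 (q = 0.0376). Between times, 8 calls were added. From dpi 2 to dpi 10 Adamts1 was at 1.13 (q = 3.16e-04), Adamts17 at 3.05 (q = 0.0132), Adamts6 at 1.502 (q = 0.0375), Mmp16 at 1.08 (q = 0.0427) and Mmp19 at -1.49 (q = 0.0284), with Mmp3 higher at q = 0.00962. From dpi 10 to dpi 42 Adamts10 was at -2.38 (q = 0.04801) and Adamts12 was lower at q = 0.0383. The 5 added differential calls were Adamts5 at 2.56 (q = 0.00196) and Adamts1 at -1.07 (q = 0.0334) on dpi 10, and Adamts15 at 3.32 (q = 0.0311), Adamts2 at -1.02 (q = 0.00498) and Adamts12, lower at q = 0.0435, on dpi 2.

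Without the 2 libraries of pool 1 of dpi 42 whose labels conflict on the kind of RNA, 5 calls of dpi 42 were not made. The OL change was then 2.86 (q = 0.0539) for Adamts17 and 0.87 (q = 0.0254) for Mmp24. OL enrichment was 0.61 (q = 0.127) for Adamts1 and -1.39 (q = 0.1001) for Adamts15, and differential OL enrichment of Adamts5 was 2.28 (q = 0.0552).

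Other proteins of matrix cleavage were read from lists set for this purpose. Of 8 genes of plasminogen activation, the serine protease system that activates proMMPs, 4 rose and none fell in total RNA on dpi 2 and 5 rose on dpi 10 and on dpi 42. In OL RNA 3 rose on dpi 2 and 4 on dpi 10 and on dpi 42. Plaur, the urokinase receptor, rose by 5.69 (SE 0.56, q = 1.10e-07) in total RNA on dpi 2. Of 9 other inhibitors and clearance factors, 3 rose and 3 fell in total RNA on dpi 2, and 2 rose and 3 fell in OL RNA. Thbs1, a thrombospondin that binds MMPs, rose by 4.003 (SE 0.39, q = 8.78e-08) in total RNA, and Spock3, a testican that restrains membrane-type MMPs, fell from between 379 and 613 to between 76.7 and 100.4 CPM in OL RNA, a Log2FC of -2.58 (SE 0.18, q = 7.03e-10). These counts and those of the next lists stand beside shares of all tested genes of 10% higher and 6.33% lower in total RNA on dpi 2. For dpi 10 they were 9.2% and 3.07%, and for dpi 42 they were 6.66% and 0.798%. In OL RNA the shares were 10.2% and 6.85%, then 6.82% and 1.26%, then 8.54% and 4.08% in the order of time. On dpi 2 the median Log2FC in total RNA was 3.15 for plasminogen activation, 0.57 for the other inhibitors, 0.84 for the sheddases described next, -0.03 for ADAMTS-like proteins and -0.02 for the tolloid list, against -0.10 over all tested genes.

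Of 8 ADAM sheddases, 3 rose and none fell in total RNA on dpi 2 and on dpi 10, led by Adam8, a protease of leukocytes, at 6.87 (SE 0.42, q = 2.05e-10) on dpi 2. In OL RNA 2 rose on dpi 2, 3 on dpi 10 and 2 on dpi 42, when 3 fell. Of 7 ADAMTS-like proteins, which lack the catalytic domain, 2 rose and 1 fell in OL RNA on dpi 2, with 2 higher on dpi 10 and 3 higher on dpi 42. Adamtsl3 went from between 1.82 and 2.06 CPM in naive OL libraries to between 19.6 and 33.4 on dpi 10, a Log2FC of 3.71 (SE 0.35, q = 2.16e-07). Of 5 tolloid proteinases and enhancers, 2 rose in total RNA on dpi 2 and on dpi 10 and 1 on dpi 42, led by Pcolce, the procollagen C-proteinase enhancer, at 4.82 (SE 0.52, q = 5.50e-07) on dpi 10. Of 4 cysteine cathepsins, all 4 rose in total RNA on dpi 10, with Ctss, cathepsin S of microglia and macrophages, at 3.74 (SE 0.23, q = 1.30e-10). Of 4 activators, Furin rose in total RNA on dpi 2, by 1.09 (SE 0.15, q = 6.53e-06), and Pcsk6 fell in OL RNA, with a Log2FC of -1.08 (SE 0.14, q = 2.55e-06). Of the 4 lecticans, substrates of Adamts4 and Adamts5, Bcan fell on dpi 2 in total RNA with a Log2FC of -1.91 (q = 0.0188) and in OL RNA with a Log2FC of -1.81 (q = 0.0244), and no other was called against naive tissue.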

How the data were processed

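RNA was sequenced from 12 tissue pools of 2 mice each, as total spinal cord RNA and as RNA bound to tagged OL ribosomes, in 24 libraries. Per the methods of the study, libraries were made from poly-A RNA, and the authors aligned reads with STAR to the mouse genome and counted reads per gene with HTSeq (version 0.10.0 in the submitters' processing notes, which also name FastQC 0.10.1). The deposited counts are raw whole numbers per gene, with no normalization. The strand setting of the counting is not given in the sources used here. No column was left out. The members, the gene lists and the tests were chosen with earlier results of these data known.

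All genes whose counts summed to 10 or more were fitted together with edgeR 4.0.16 (limma 3.58.1, R 4.3.3), using TMM factors and the quasi-likelihood F test, and q is the p-value after Benjamini-Hochberg adjustment across 17167 genes. Changes against naive tissue and between injured times came from a model of 8 group means. OL enrichment and differential OL enrichment came from a model with the 12 tissue pools as a block, since both libraries of a pool come from the same mice. The pool of a library was taken from the tissue number in its column name, and the kind of RNA from its description, also for the 2 dpi 42 libraries whose titles name the opposite kind. The correlation of OL with total deviations from their group means, over genes, was 0.0840, 0.0408 and 0.137 for the naive pools. It was 0.0879, 0.0998 and 0.108 for those of dpi 2, then 0.0630, 0.0245 and 0.0258 for dpi 10. For dpi 42 it was -0.0109, 0.0200 and 0.000873, where the data do not bear the pairing out. SE is the absolute Log2FC divided by the square root of F.

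Values are CPM scaled with TMM factors. Values in every library are given for members called against naive tissue or between OL and total RNA with a group mean of at least 1 CPM, and ranges for the others, with a few low members given in full where their calls are described. A group with no count was set at 3 counts over the group for a bound, and with 1 to 3 counts the ratio is given with a 95% exact interval, both covering counting error only. Each pool holds 2 mice, so p-values measure the spread between pools. Naive and dpi 42 tissue was collected on the same day. Gene positions are from GENCODE M21 (GRCm38), and promoters from RefSeq (GRCm38.p6). Alternatives were DESeq2 1.42.0 and its size factors, library sizes alone, other filters on low counts, other blocks, the groups compared alone, libraries left out 1 at a time, and fits without libraries with doubtful labels or high astrocyte markers. The scripts were tested on simulated data. A listed gene and the promoter of the Cre are not reported here.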

Additional observations from a re-analysis of the deposited data

Results flagged for a closer look

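These members were picked out because a test found their change to differ between OL and total RNA, or between 2 injured times, among members with a mean of at least 1 CPM in a group. Values are Log2FC with q from the quasi-likelihood test of edgeR, and no cause was tested.

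Differential OL enrichment was called at all 3 times for Mmp17, at 3.77 (q = 1.34e-04) on dpi 2, 2.77 (q = 0.00158) on dpi 10 and 1.66 (q = 0.0275) on dpi 42, with OL values higher and total values lower than in naive tissue. Mmp2 was called in the other direction at all 3 times, at -2.16 (q = 0.00254), -2.14 (q = 0.00461) and -1.99 (q = 0.00725). Adamts5 was at 2.08 (q = 0.0229) on dpi 2 and 2.31 (q = 0.0226) on dpi 42, and Mmp24 at 1.09 (q = 0.0469) and 1.58 (q = 0.0124) on the same days. On dpi 2 Adamts1 was at -2.52 (q = 0.00143) and Mmp15 at -1.0002 (q = 0.00569). The value of Adamts16 on dpi 2, -6.46 (q = 0.0187), is a fitted one from OL libraries with no count and gives no bound.

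Between dpi 2 and dpi 10, OL RNA of the membrane-type gene Mmp15 was higher by 1.22 (q = 9.83e-07). The procollagen proteinase Adamts2 was higher by 1.54 (q = 2.96e-07) in OL and 1.47 (q = 2.31e-06) in total RNA, and Adamts20 by 1.89 (q = 0.00139) and 2.08 (q = 0.00191). The gelatinase Mmp2 was higher by 1.52 (q = 2.88e-04) in OL and 1.54 (q = 7.77e-04) in total RNA, and Mmp23 by 1.97 (q = 0.0468) and 2.503 (q = 0.01701). Mmp12 was higher by 6.14 (q = 1.71e-04) in OL RNA, where 2 counts on dpi 2 give a ratio of 81.9 (95% exact counting interval 22.3 to 682), and by 4.27 (q = 1.58e-04) in total RNA, and Mmp3 by 3.69 (q = 0.0301) in total RNA. In OL RNA Adamts10 was higher by 1.84 (q = 0.0193) and Mmp13 by 4.396 (q = 0.0227). The OL call of Mmp23 was not made without the OL library of pool 2 or 3 of dpi 10 or the OL library of pool 3 of dpi 2 (log2 1.45 to 1.92, q = 0.0861 to 0.155), that of Adamts10 without the OL library of pool 1 or 2 of dpi 2 or the OL library of pool 3 of dpi 10 (log2 1.39 to 1.7, q = 0.0614 to 0.102), and that of Mmp13 without the OL library of pool 1 of dpi 10 or the OL library of pool 2 or 3 of dpi 2 (log2 3.88 to 3.995, q = 0.0616 to 0.0712). Fitted values against OL libraries of dpi 2 with no count, which give no bound, were 8.21 (q = 0.00253) for Adamts12, 7.64 (q = 7.92e-04) for Adamts16 and 7.97 (q = 0.00215) for Adamts7. Over the same time Timp1 was at -3.08 (q = 2.11e-04) in OL and -2.16 (q = 0.00878) in total RNA, and OL values were lower for Adamts5, at -1.22 (q = 0.0224), and Mmp17, at -1.16 (q = 0.00188). From dpi 10 to dpi 42 Mmp2 was lower in OL RNA, at -1.04 (q = 0.0227).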

How the results depend on the processing

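No call of a member changed its direction in any alternative, and 110 of 190 calls were made in every one. Leaving out 1 library or pool at a time lost 67 calls in at least 1 fit, and the other alternatives lost 58. Low counts limit the genes under 1 CPM, several of which had no count in a group, and replicates number 3 in each group.

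Counts of called members that moved by over 1.5 times, against the values in the report, were these. The DESeq2 Wald test called 4 against 1 in OL RNA and 1 against 0 in total RNA between dpi 10 and dpi 42, and 4 against 2 as differentially enriched on dpi 10. Fitted on the groups compared alone, the counts were 8 in OL RNA on dpi 2, 6 on dpi 42 and 0 between dpi 10 and dpi 42, with 22 in total RNA on dpi 2, 22 on dpi 10, 12 between dpi 2 and dpi 10 and 7 between dpi 10 and dpi 42. Differential OL enrichment then gave 4 on dpi 10 and 2 on dpi 42, and the two-arm filtration 4 against 8. These fits hold fewer samples, and the shares of all tested genes called in them were not counted. Without tissue pool 2 of dpi 2, 9 members were called against 15 in OL RNA between dpi 2 and dpi 10. Without the 2 libraries whose labels conflict on the kind of RNA, OL RNA between dpi 10 and dpi 42 gave 2. Without the OL libraries high in astrocyte markers, chosen after seeing the data, the counts were 2 for that comparison and 4 and 2 for differential OL enrichment on dpi 10 and dpi 42. The cause was not tested in these cases.

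With 1 library or pool left out, counts ran from 0 to 4 in OL RNA between dpi 10 and dpi 42, from 3 (without naive pool 1) to 7 and from 1 (without naive pool 2) to 4 for differential OL enrichment on dpi 2 and dpi 42, from 11 (without pool 1 of dpi 10) to 15 for OL enrichment on dpi 10, against 24, and from 3 (without naive pool 2) to 11 for the filtration. The replicate block by number lost 4 of 98 calls. Replicate numbers are shared across times as numbers alone, and libraries with the same number had deviations correlated at -0.309 to 0.248. The fits with no replicate block by tissue pool lost 4 of 92 calls, and called 4 members against 2 as differentially enriched on dpi 10.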
